A study of Mus musculus with 9 samples.

Results

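The control cells of the series were Neuro-2a (N2a) cells that carried a hairpin against luciferase, an insect enzyme with no counterpart in the mouse genome. Their libraries are labelled shlucif, with the genotype luciferase knockdown, no treatment, the tissue brain and the cell type neuroblast. They were chosen by that label, and they make up 3 of the 9 libraries of the series. The other libraries, of cells with hairpins against Arf1, were not used. N2a is an established line grown from a mouse neuroblastoma. According to the study's methods the hairpin was delivered by lentivirus, so the control cells were transduced cells and not the parental line. The labels do not say that the libraries came from separate cultures, so the SD given below may be technical. In bulk RNA of this kind, a few cells with much of a transcript and many cells with little of it cannot be told apart.

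Poly(A) RNA was fragmented, reverse transcribed from random primers and sequenced. The table holds a read count and an FPKM value (the read count scaled to the length of the gene and to the depth of the library) for each of 21899 genes. The libraries held 13786986, 13381570 and 13631004 counts. Levels of different genes are compared below as FPKM, which is per length, and counts are given for genes near the floor, for spread and where an order by counts is named. A gene was counted as expressed where it reached at least 1 FPKM in each library, at the floor where it had 3 counts or fewer in each library, and low otherwise. A gene with 0 counts could still have up to 0.218, 0.224 and 0.220 CPM in libraries 1, 2 and 3 (CPM is the count scaled to library depth, with no gene length), a limit that covers counting error only. No test was made, since all values describe 1 group.

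Neuroblastoma arises from neural crest cells on their way to the sympathetic nervous system and the adrenal medulla. Sympathetic neuroblasts are set up by a small circuit of transcription factors that includes Phox2a, Hand2, Gata2 and Gata3, and they mature into neurons that make noradrenaline from tyrosine. N2a cells are widely used as a dividing stand-in for neurons because they can put out neurites.

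The control cells expressed 10386 genes, 47.4% of the table, and 8196 genes (37.4%) were at the floor, of which 6311 had no count in any library. The remaining 3317 genes were low. Expressed genes had a median of 9.02 FPKM and an upper quartile of 20.5 FPKM, while the median over all genes of the table was 0.793 FPKM. At least 10 FPKM in each library was reached by 4633 genes, at least 100 FPKM by 389 genes and at least 1000 FPKM by 20 genes. Those 20 genes held 14.4% of the summed FPKM in libraries 1 and 3 and slightly less in library 2. The 10 highest genes of a library held 9.39% ± 0.154 of its summed FPKM and the 100 highest held 29.8% ± 0.432 (SD, n = 3). A total of 462, 490 and 456 genes made up 50% of the summed FPKM in the 3 libraries.

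The most abundant RNA was that of the translation machinery. Eef1a1, the elongation factor that brings aminoacyl-tRNA to the ribosome, stood at 6317, 5945 and 6218 FPKM in libraries 1, 2 and 3. Eef2, which moves the ribosome along the messenger, followed at 2858, 2613 and 2668 FPKM, and the chaperone gene Hsp90ab1 came next at 2581, 2527 and 2514 FPKM. By their means these genes held places 1 to 3 in FPKM and also in counts, and their ranges did not overlap with one another. From place 3 on the order was loose, since Rpl8 was above Hsp90ab1 in libraries 1 and 3. Of the 24 neighbouring pairs among the 25 highest genes, 18 had overlapping ranges and were not ordered by their ranges. Such a pair could still keep the same order within each library, as Rpl8 above Rplp0 did. The steps without overlap were Eef1a1 above Eef2, Eef2 above Hsp90ab1, mt-Co1 above Actg1, Rps2 above Rpl36, mt-Cytb above Ptma and Gm11808 above Rps23.

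**Figure D1:**
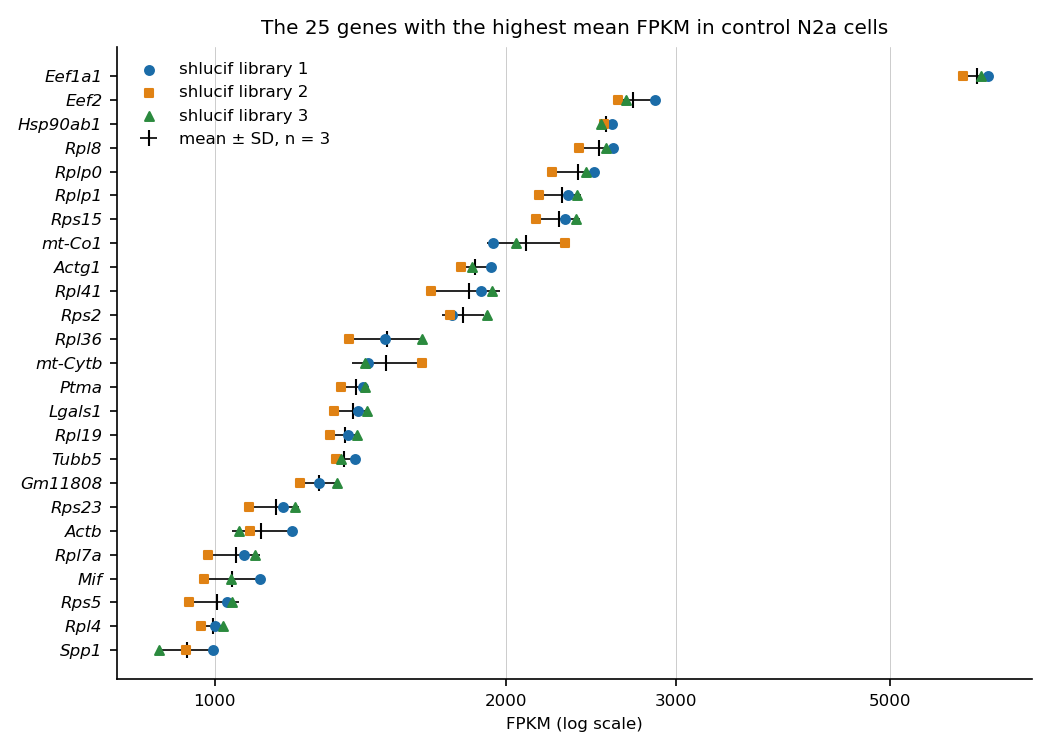
FPKM (log axis) of the 25 genes with the highest mean in the 3 control libraries, 1 row per gene, with a point for each library and a bar for the mean ± SD (n = 3). Eef1a1 stands apart at a mean of 6160 FPKM, and most neighbours below Hsp90ab1 overlap.

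Cytosolic ribosomal protein genes supplied 12 of the 25 highest genes by symbol, led by Rpl8 at 2582, 2382 and 2540 FPKM and Rplp0 at 2471, 2232 and 2421 FPKM. Among 79 such genes, 78 were expressed, with a median of 431 FPKM. Together they held 15.5%, 14.9% and 15.9% of the summed FPKM, and 62 of the 79 were lowest in library 2, as were 29.4% of all expressed genes. Beside them in the 25 were the cytoskeletal genes Actg1 (1860 ± 68.1 FPKM), Tubb5 (1362 ± 32.3 FPKM) and Actb (1117 ± 75.5 FPKM), each with SD over n = 3. Ptma, which encodes the nuclear protein prothymosin alpha, Lgals1, which encodes the sugar-binding galectin 1, and Mif, which encodes a cytokine, had 1401, 1391 and 1042 FPKM on average. The last of the 25 was Spp1, which encodes the secreted phosphoprotein osteopontin, at 996, 934 and 875 FPKM. Library 1 was the highest and library 3 the lowest for Spp1. Arf1, the gene targeted elsewhere in the series, ranked 106 at 324 ± 6.72 FPKM (SD, n = 3).

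By counts, which favour long transcripts, the leading 10 genes were Eef1a1, Eef2, Hsp90ab1, Actg1, Tubb5, Rplp0, Rpl8, Rps2, Rack1 and mt-Co1. Eef1a1 alone had 217126, 198322 and 211291 counts. Rack1, which encodes a scaffold protein of the small ribosomal subunit, came in at rank 9 by counts and 42 by FPKM. Of the 25 highest genes by FPKM, 14 were also among the 25 highest by counts.

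The table's own pathway annotation places these levels in the cell's economy. Genes of oxidative phosphorylation held 3.03% ± 0.0726 of the summed FPKM and genes of protein processing in the endoplasmic reticulum 3.04% ± 0.0254 (SD, n = 3). The oxidative phosphorylation share was 3.04%, 2.96% and 3.10% in libraries 1, 2 and 3, lowest where mitochondrially encoded genes were highest. It therefore seems to leave out most of the 2.08% held by mitochondrially encoded genes, and it was not read as the whole pathway. The lysosome held 1.54%, the spliceosome 1.69%, the cell cycle 1.24%, glycolysis 0.899% and the proteasome 0.810% on average. Nearly all spliceosome genes (120 of 131) and proteasome genes (44 of 47) were expressed. In contrast, 61 of 287 genes of the cytokine and cytokine receptor pathway and 19 of 1142 genes of olfactory transduction reached 1 FPKM in each library. All 172 genes that the table places on the Y chromosome had 0 counts in the control libraries, among them Ddx3y, Kdm5d, Eif2s3y and Uty, which are active in most male mouse cells. Xist was not analysed here.

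The mitochondrial genome encodes 13 proteins, all of them subunits of the respiratory chain or of ATP synthase, and it is transcribed as long precursors that are then cut. In the control cells its genes spread over more than 3 orders of magnitude on the FPKM scale. At the top were mt-Co1, a subunit of cytochrome c oxidase, at 1940, 2306 and 2051 FPKM and mt-Cytb, the cytochrome b of complex III, at 1442, 1639 and 1431 FPKM. The complex I subunits mt-Nd5, mt-Nd1, mt-Nd2, mt-Nd4 and mt-Nd6 followed, with means from 687 down to 178 FPKM. These 7 genes were the high group.

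The other 6 were far lower. mt-Co2, another subunit of cytochrome c oxidase, had 35.9, 40.6 and 34.1 FPKM. mt-Co3 had 25.9, 26.3 and 22.3 FPKM, and mt-Atp6, a subunit of ATP synthase, had 23.0, 24.9 and 23.9 FPKM. None of these 3 overlapped with the high group, whose lowest single value was 145 FPKM for mt-Nd6. The short genes mt-Nd3 and mt-Nd4l were low, with 4, 8 and 27 counts for mt-Nd3 and 3, 7 and 4 for mt-Nd4l, and mt-Atp8 was at the floor with 2, 0 and 1 counts. As a class, mitochondrially encoded genes held 1.94%, 2.31% and 2.00% of the summed FPKM, and 11 of the 13 were highest in library 2, as were 36.6% of all expressed genes.

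Sequence sharing moved with this split. For every gene of the table, the share of its 100-base stretches that also occur in an annotated transcript of another, non-overlapping gene was counted in the GENCODE transcripts. It was 99.5% for mt-Co2 and mt-Atp6, 99.9% for mt-Co3, 97.6% for mt-Nd3 and 98.5% for mt-Nd4l, and in each case the main partner was an unprocessed pseudogene in the nuclear genome. In the high group it was 0% for mt-Cytb, mt-Nd5, mt-Nd1 and mt-Nd6, 3.19% for mt-Nd2, 30.8% for mt-Co1 and 60.8% for mt-Nd4. mt-Atp8, with 0% shared, did not follow the split. The start of the coding sequence of mt-Co2 (chromosome M, 7013 to 7696, plus strand) is shown with its nuclear partner Gm28661 (chromosome 1, 24614885 to 24615565, minus strand, GRCm38), with the start codon in capitals, because the pair was identical over all 681 aligned bases:
mt-Co2: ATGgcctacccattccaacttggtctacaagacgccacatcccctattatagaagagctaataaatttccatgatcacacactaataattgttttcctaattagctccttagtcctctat
Gm28661: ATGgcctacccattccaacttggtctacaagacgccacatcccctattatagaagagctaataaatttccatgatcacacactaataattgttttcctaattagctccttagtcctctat
A read from these bases matches both places equally well. How the authors treated reads that match several places is not given in the sources used here, and the role of shared sequence in these levels was not tested.

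Over the whole table, 405 genes shared more than 90% of their 100-base stretches, and 2.47% of them were expressed. Of the 17058 genes that shared none, 51.2% were expressed. Genes with no count in any library made up 82.0% of the first set and 23.8% of the second. The sets were not matched for the kind of gene, and the role of sharing in this difference was not tested. Among the 79 ribosomal protein genes, levels ran from 0.0472 FPKM (Rpl24, 46.3% shared) to 2501 FPKM (Rpl8). Levels rose weakly with the share (Spearman's rho = 0.25 across genes, which are not independent, and 0.34 with stretches of 50 bases). Low values stood at both small and larger shares, with Rps10 at 1.68 FPKM and 13.7% and Rpl13a at 11.5 FPKM and 0.324%. Gapdh, a glycolytic enzyme often used as a reference, had 20.5, 17.5 and 18.7 FPKM, 20.9% shared stretches and 86 partner genes. Its level in this table was lower than that of the reference genes Ppia (562, 548 and 581 FPKM), Pgk1 (183, 173 and 168 FPKM) and Hprt (79.3, 81.0 and 76.4 FPKM), with no overlap.

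**Figure D2:**
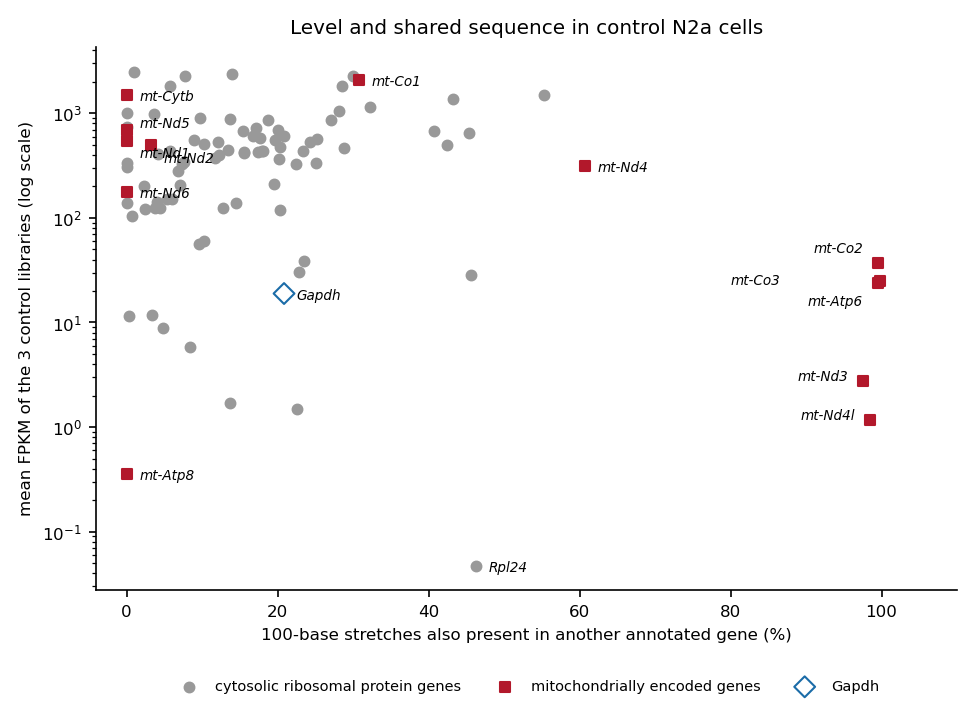
Mean FPKM of the 3 control libraries (log axis) against the percentage of a gene's 100-base stretches found in another annotated gene, for the 13 mitochondrially encoded genes (squares) and the 79 cytosolic ribosomal protein genes (circles), with a diamond on Gapdh. The 5 mitochondrial genes at 97.6% shared or more lie at 36.9 FPKM or less, and the ribosomal protein genes show no such order.

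The lineage of the cells was read from lists of known genes. Of the 14 sympathetic lineage transcription factors, 11 were expressed, with a median of 7.27 FPKM beside 0.793 FPKM over all genes. Phox2a, a homeodomain factor that directs the noradrenergic fate, had 80.2, 83.6 and 78.4 FPKM and ranked seventh among all transcription factors. Sox4, an SRY-box factor of immature neurons, had 54.7, 62.3 and 62.2 FPKM. Hand2, a basic helix-loop-helix factor of the sympathetic circuit, had 35.4, 53.3 and 47.0 FPKM, and the zinc-finger factor Gata2 had 30.7, 29.3 and 30.8 FPKM. Hand2 varied most of these, with library 1 the lowest. Their partners were lower on the same scale. Isl1 had 5.84, 5.40 and 5.69 FPKM, and Gata3 had 1.82, 1.11 and 1.53 FPKM. Mycn, the oncogene amplified in many human neuroblastomas, had 11.4, 12.4 and 12.1 FPKM.

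Little RNA of the catecholamine pathway was found. Of 12 genes 7 had at least 10 counts in each library, and 3 were expressed, among them Gch1, which makes the tetrahydrobiopterin cofactor (22.5, 26.6 and 24.2 FPKM), and Cyb561, an electron carrier of secretory granules (19.6 ± 0.542 FPKM, SD, n = 3). Th, the rate-limiting enzyme of the pathway, had 14, 13 and 14 counts, or 0.430, 0.411 and 0.434 FPKM. Dbh, which turns dopamine into noradrenaline, had 29, 25 and 26 counts, and Ddc, the decarboxylase between them, had 5, 5 and 4 counts. The noradrenaline transporter gene Slc6a2 had 0, 0 and 2 counts, and Pnmt and the dopamine transporter gene Slc6a3 had none. Th, Dbh and Ddc were therefore detected but not expressed, and Th lay below the median of all genes, 0.793 FPKM, in each library.

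In the cholinergic, glutamatergic and GABAergic lists, which hold many receptor genes, some receptors were expressed and genes of synthesis or packaging were not. The serotonergic and glycinergic list held no receptor gene. Of 12 cholinergic genes 4 were expressed, namely the nicotinic receptor subunits Chrnb2 (6.38 FPKM on average), Chrna3 (2.87 FPKM) and Chrna7 (1.82 FPKM) and the esterase Ache (6.34 FPKM). Chat, the enzyme that makes acetylcholine, had 0, 6 and 0 counts, and the choline transporter gene Slc5a7 had none. Of 12 glutamatergic and GABAergic genes only Grin1, the obligatory subunit of NMDA receptors, was expressed, at 7.73, 7.14 and 7.49 FPKM. The vesicular glutamate transporter gene Slc17a6 and the GABA-synthesis gene Gad2 had no count. Of the 6 serotonergic and glycinergic genes, Slc6a9, a glycine transporter gene (4.58 FPKM on average), Tph2 (3.03 FPKM), Fev (1.82 FPKM) and Tph1 (1.17 FPKM) were expressed. Tph2 and Fev, the neuronal tryptophan hydroxylase and the factor that drives it in serotonergic neurons, rested on 113 to 126 and 38 to 42 counts. The serotonin transporter gene Slc6a4 was at the floor with 3, 3 and 0 counts.

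General neuronal genes were high. Of 18 pan-neuronal genes 14 were expressed, with a median of 19.6 FPKM. Prph, an intermediate filament of peripheral neurons, had 843, 858 and 902 FPKM and ranked 28 in the whole table. Tubb3, the neuronal beta-tubulin, had 439, 399 and 392 FPKM, Stmn1, which destabilises microtubules, had 292, 287 and 310 FPKM, and Uchl1, a neuronal ubiquitin hydrolase, had 231, 238 and 247 FPKM. The list was split by the kind of filament. Nefh had 16.4, 16.2 and 16.5 FPKM and Ina had 14.4, 13.8 and 13.3 FPKM, but the light and medium neurofilament genes Nefl and Nefm were at the floor. Nefl had 0, 0 and 2 counts and Nefm had none. Dcx, a microtubule protein of migrating neuroblasts, had 0, 0 and 5 counts, and Rbfox3, which encodes the NeuN antigen of mature neurons, had 0, 4 and 3.

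The regulated secretory pathway was the other neuronal feature. Of 15 synaptic and dense-core vesicle genes 14 were expressed, and the granins led them. Scg2 had 223, 222 and 247 FPKM, Chgb had 157, 163 and 160 FPKM, Scg3 had 97.1, 102 and 107 FPKM and Chga had 82.3, 74.5 and 81.3 FPKM. Granins are acidic proteins that fill dense-core granules. Vgf, a granin-like precursor chosen after its value was seen, had 512, 525 and 536 FPKM. The fusion genes Snap25, Vamp2 and Stx1a and the calcium sensor gene Syt1 lay between 10.8 and 19.9 FPKM in single libraries. Of the prohormone-processing enzymes, Cpe had 78.1, 81.4 and 78.5 FPKM, Pcsk2 had 1.92, 1.79 and 1.53 FPKM, and Pcsk1 was at the floor with 3, 2 and 0 counts.

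Of 18 neuroblastoma genes 13 were expressed. Ret, the receptor tyrosine kinase for ligands of the GDNF family, had 131, 126 and 122 FPKM. It was the highest of 52 receptor tyrosine kinase genes that the table annotates. L1cam, an adhesion molecule of growing axons, had 84.4, 83.2 and 81.5 FPKM, and Ngfr, the low-affinity neurotrophin receptor, had 61.5, 50.2 and 51.7 FPKM. Alk, a kinase mutated in familial neuroblastoma, had 8.54, 9.38 and 7.81 FPKM. The expression of the GDNF co-receptors was uneven, with Gfra1 at 4.24, 3.83 and 3.94 FPKM, Gfra2 at 5, 6 and 8 counts and Gfra3 at 0, 1 and 1 counts. Ntrk2, the receptor for brain-derived neurotrophic factor, and St8sia1, which makes the ganglioside GD3 on the way to GD2, had no count.

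Human neuroblastoma cells are commonly described as adrenergic or mesenchymal. Of 17 mesenchymal and fibroblast genes 6 were expressed in the control cells, with a list median of 0.189 FPKM. Vim, the intermediate filament of mesenchymal and many cultured cells, had 606, 569 and 584 FPKM, and Fn1, fibronectin, had 74.4, 75.6 and 70.2 FPKM. Acta2, Notch2, Pdgfrb and Cd44 were also expressed, with means from 16.9 to 3.42 FPKM. The defining transcription factors of that state in the list were at the floor, with 0 counts of Prrx1 and Twist1 and 1 count of Snai2 in each library. Col3a1, Postn and Yap1 also had 0 counts, and Col1a2 had 0, 1 and 2.

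The label brain was compared with regional factors of the central nervous system. Of 20 brain region transcription factors 16 had 0 counts in all 3 libraries, among them Emx1, Otx2, En1 and Tbr1. Otx1 was the only expressed one, at 4.07, 3.05 and 3.77 FPKM. The Hox genes mark position along the trunk. Of 39 Hox genes 4 were expressed, and all 4 lie in the Hoxc cluster on chromosome 15. Hoxc10 had 11.5, 10.7 and 12.8 FPKM, Hoxc9 had 3.97, 4.83 and 4.59 FPKM, Hoxc4 had 2.29, 2.21 and 2.03 FPKM, and Hoxc6 had 1.51, 1.27 and 1.46 FPKM. The ranges of these 4 did not overlap with one another. Hoxc8, which lies between Hoxc9 and Hoxc6, was low with 5, 10 and 9 counts. All 10 Hoxb genes and all 9 Hoxd genes were at the floor, as were 10 of 11 Hoxa genes.

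The table annotates 1218 genes as DNA-binding transcription factors, and 563 were expressed, while 293 had no count. The highest were Atf4, the effector of the integrated stress response, at 250, 237 and 233 FPKM, and Rhox5, a homeobox factor best known from the reproductive tract, at 228, 214 and 219 FPKM. Their ranges did not overlap. Pcbp1, an RNA- and DNA-binding protein, had 208, 201 and 200 FPKM. Srebf2 and Srebf1, the regulators of cholesterol and fatty acid synthesis, held places 4 and 6 at 173 ± 1.51 and 83.8 ± 2.67 FPKM (SD, n = 3). Their known target genes Acly (335, 318 and 310 FPKM), Scd2 (214, 231 and 220 FPKM) and Fasn (56.4, 54.8 and 49.9 FPKM), chosen after their values were seen, were expressed too. Acaca, the acetyl-CoA carboxylase gene, is also placed downstream of SREBP1, the Srebf1 protein, by the study. Acaca was lower at 4.89, 5.04 and 4.47 FPKM, under the median of expressed genes. The 15 highest were completed by Maz, Phox2a, Tcf25, Sohlh2, Junb, Nfe2l1, Tfdp1, Sox4, Etv4 and Ddit3, between 88.1 and 45.9 FPKM on average. Sohlh2, a factor of germ cell differentiation, had 78.7, 77.6 and 75.6 FPKM.

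Genes of cell division were high. Of 16 proliferation genes 15 were expressed, led by the replication clamp gene Pcna (121, 116 and 113 FPKM), the topoisomerase gene Top2a (94.9, 106 and 103 FPKM), the mitotic cyclin gene Ccnb1 (75.8, 73.4 and 68.9 FPKM) and the G1 cyclin gene Ccnd1 (71.4, 68.7 and 67.5 FPKM). Ccnd2 was low at 0.478, 0.620 and 0.561 FPKM, with no overlap with Ccnd1. Of 11 checkpoint genes 9 were expressed. Cdkn2a, the locus of the p16 and p19 tumour suppressors, led with 109, 107 and 112 FPKM, followed by Myc, Cdkn1a and Trp53 at means of 40.7, 35.6 and 34.8 FPKM. The table gives 1 value for Cdkn2a and does not separate its products. Cdkn2b beside it on the chromosome had 9, 11 and 9 counts.

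Of 13 pluripotency and neural stem cell genes 4 were expressed. Lin28a, an RNA-binding protein that blocks let-7 maturation, had 20.3, 22.7 and 20.8 FPKM, the filament gene Nes had 12.9, 13.1 and 12.5 FPKM, Msi1 had 11.2, 10.8 and 10.6 FPKM and Lin28b had 1.44, 1.80 and 1.90 FPKM. Sox2, Pou5f1, Sox1 and Prom1 had 0 counts. Of 18 imprinted genes that were measured 9 were expressed, led by Mest at 136, 135 and 132 FPKM, Peg3 at 26.9, 32.6 and 28.7 FPKM, Impact between 19.9 and 20.2 FPKM and Nap1l5 at 16.1, 15.4 and 18.4 FPKM. Igf2 and Plagl1 had 0 counts. H19, Meg3, Rian, Peg13 and Kcnq1ot1 were not analysed here.

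**Figure D3:**
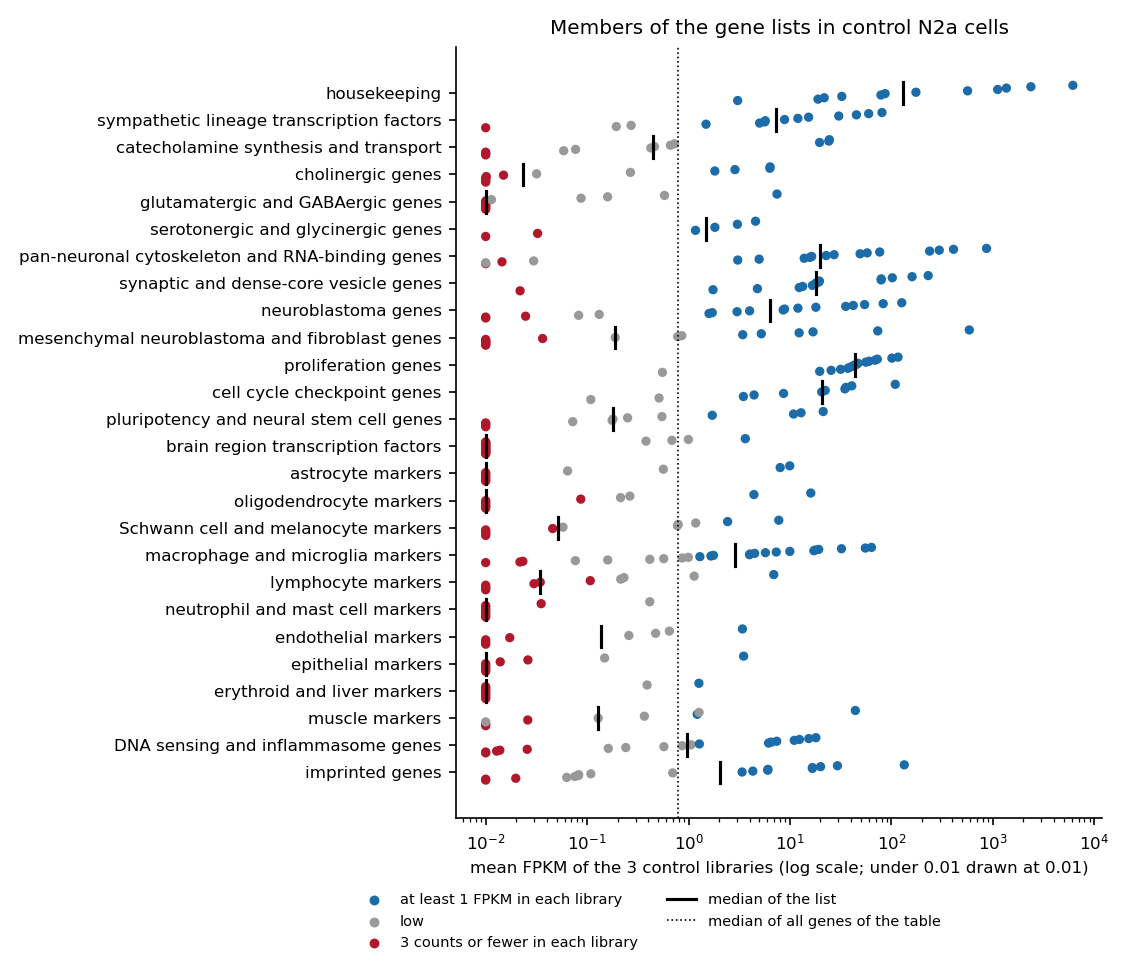
Mean FPKM over the 3 control libraries (log axis, values under 0.01 drawn at 0.01) of every member of 26 gene lists, 1 row per list, coloured by whether the gene was expressed, low or at the floor, with a bar at the median of each list and a dotted line at the median of all genes, 0.793 FPKM. Housekeeping, proliferation, pan-neuronal and vesicle genes lie mostly to the right of the line, and brain region, astrocyte and oligodendrocyte genes mostly at the left edge.

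Markers of other cell types were looked for to see what else the culture held or the cells expressed. Few glial markers were found. Of 10 astrocyte markers Sox9 (9.03, 10.5 and 10.3 FPKM) and Fgfr3 (7.73, 8.75 and 7.55 FPKM) were expressed, while 6 had no count, among them Aqp4, Slc1a2, Slc1a3 and S100b. Of 11 oligodendrocyte markers Cnp (15.9, 16.9 and 15.3 FPKM) and Mbp (4.41, 4.45 and 4.38 FPKM) were expressed, while Sox10, Olig1, Olig2, Mag, Mobp and Opalin had no count. Of 12 Schwann cell and melanocyte markers Erbb3 and Egr2 were expressed, at means of 7.76 and 2.43 FPKM, and Pmp2, Foxd3, Tyr and Dct were at 0. Sox10, the lineage factor that oligodendrocytes and Schwann cells share, was thus not detected.

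Macrophage and microglia markers were the exception. Of 24 markers 15 were expressed, 6 were low and 3 were at the floor, with a median of 2.87 FPKM. Over all genes 47.4% were expressed and the median was 0.793 FPKM. At 5 FPKM in each library 9 of the 24 markers remained, beside 6987 of all 21899 genes. Lyz2, the macrophage lysozyme, had 68.2, 62.7 and 60.1 FPKM, Cd68, a lysosomal glycoprotein, had 60.6, 55.8 and 49.6 FPKM, and the protease gene Ctss had 34.7, 31.0 and 31.0 FPKM. Tyrobp, the signalling adaptor of myeloid receptors, had 22.5, 17.5 and 17.6 FPKM. The myeloid master regulator Spi1 had 4.36, 3.83 and 3.78 FPKM, the F4/80 antigen gene Adgre1 had 4.75, 4.43 and 4.28 FPKM, and Csf1r, the receptor for macrophage colony-stimulating factor, had 1.85, 1.73 and 1.41 FPKM. Ptprc, which encodes the pan-leukocyte antigen CD45, was low at 0.955, 0.943 and 0.701 FPKM. Of the defining microglial genes, P2ry12 had 0, 0 and 1 counts, Cx3cr1 had 1, 1 and 2 counts, C1qa had 1, 0 and 0 counts, and Tmem119 had 32, 31 and 31 counts. No marker of the list had 0 counts in all 3 libraries.

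Most of these markers were highest in library 1. Their summed level was 273, 244 and 229 FPKM in libraries 1, 2 and 3. Of the 21 markers above the floor, 16 were highest in library 1 and 15 were lowest in library 3, where 35.1% and 34.4% of all 10386 expressed genes were highest and lowest in those libraries. Gpnmb, a glycoprotein of phagocytes and melanocytes chosen after its value was seen, had 114, 105 and 92.4 FPKM, in the same order as Spp1. For Gpnmb and Spp1 the relation of the marker list to their levels was not tested.

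**Figure D4:**
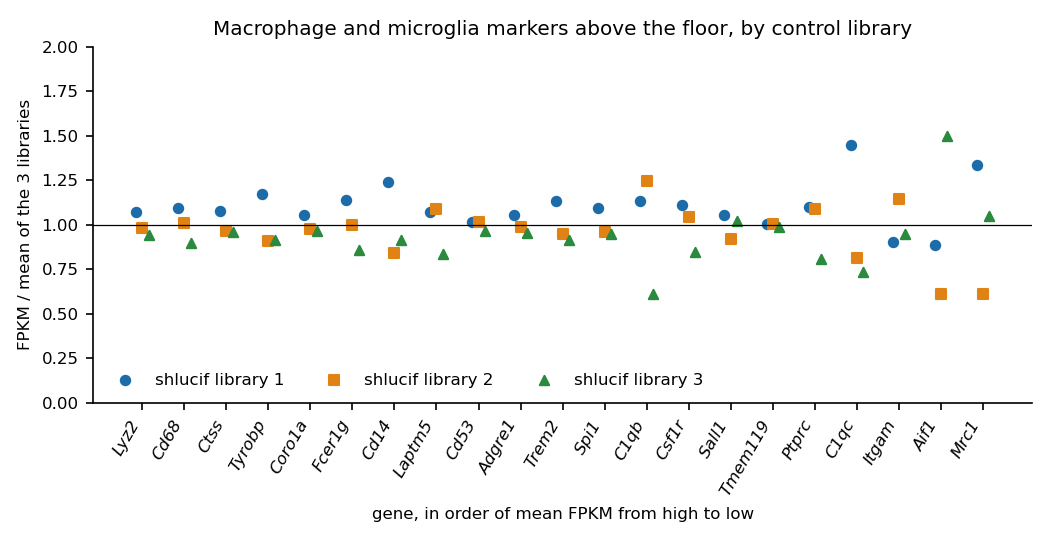
FPKM of each macrophage and microglia marker above the floor divided by its mean over the 3 control libraries, with genes from the highest mean level on the left to the lowest on the right and a symbol for each library. Library 1 lies above the mean line for most markers and library 3 below it, and the rarest markers on the right scatter most.

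The remaining lists were close to empty. Of 11 lymphocyte markers only the kinase gene Lck was expressed (7.55, 7.53 and 5.69 FPKM), with Cd8a, Ms4a1 and Cd79a at 0, and of 9 neutrophil and mast cell markers none was, with Csf3r the highest at 20, 21 and 20 counts. Of 8 endothelial markers Pecam1 was expressed at 3.34, 3.61 and 3.24 FPKM, of 9 epithelial markers Krt8 at 3.26, 3.74 and 3.48 FPKM, and of 10 erythroid and liver markers Afp at 1.36, 1.26 and 1.18 FPKM. Of 9 muscle markers Myh3 and Tnnt2 were expressed. Myh3, the embryonic myosin heavy chain, had 44.3, 43.3 and 44.8 FPKM, while the myogenic factors Myod1 and Myog were at the floor, with 2, 0 and 0 counts for Myod1 and none for Myog.

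The study concerns DNA that reaches the cytosol, so the genes of that response were described in the control state. Of 18 DNA sensing and inflammasome genes 8 were expressed. Tbk1, the kinase downstream of Sting, had 18 ± 1.61 FPKM (SD, n = 3), the pore-forming effector gene Gsdmd had 15.6, 14.7 and 15.8 FPKM, the inflammasome sensor gene Aim2 had 12.1, 12.9 and 12.2 FPKM and the interferon receptor gene Ifnar1 had 11.1, 11.2 and 10.7 FPKM. Cgas, the sensor that makes the messenger cGAMP, had 1.14, 1.23 and 1.46 FPKM, and Sting1, which receives it, had 7.09, 6.03 and 6.48 FPKM. Nlrp3 lay at the threshold with 1.18, 1.03 and 0.958 FPKM, Casp1 was low with 19, 30 and 24 counts, and the adaptor gene Pycard had 1, 0 and 3 counts. Ifnb1 had no count and Il1b had 0, 0 and 1.

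The libraries were close to one another. The Pearson correlation of log2 CPM over 11957 genes was between 0.994 and 0.995 for the 3 pairs, and Spearman's rho was between 0.996 and 0.997. The edgeR common dispersion of the 3 libraries gave a biological coefficient of variation of 5.56%, which is the spread between libraries left after counting error. No pair was a copy of another, since the squared differences of counts were 3.33 to 5.38 times what counting alone gives over 9578 genes with at least 100 counts in each library. Library 1 stood somewhat apart, since the coefficient was 4.22% without it, between libraries 2 and 3. The deviation of a gene's log2 level from its mean went with GC content at rho = 0.35 in library 1, -0.25 in library 2 and -0.15 in library 3, and with gene length at -0.13, 0.26 and -0.11, as a description across genes of the same libraries. Their role in the spread was not tested.

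Spread fell with the number of counts and then levelled off. For genes with a mean of 10 to 30 counts the median coefficient of variation was 26.0%, where counting alone gives 20.4% for 3 libraries. It was 8.96% against 6.08% at 100 to 300 counts and 4.31% against 2.14% at 1000 to 3000 counts. In the 143 genes with 10000 counts or more it was 3.67% against 0.668%. For the abundant genes named above, the spread between libraries was therefore larger than counting error.

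**Figure D5:**
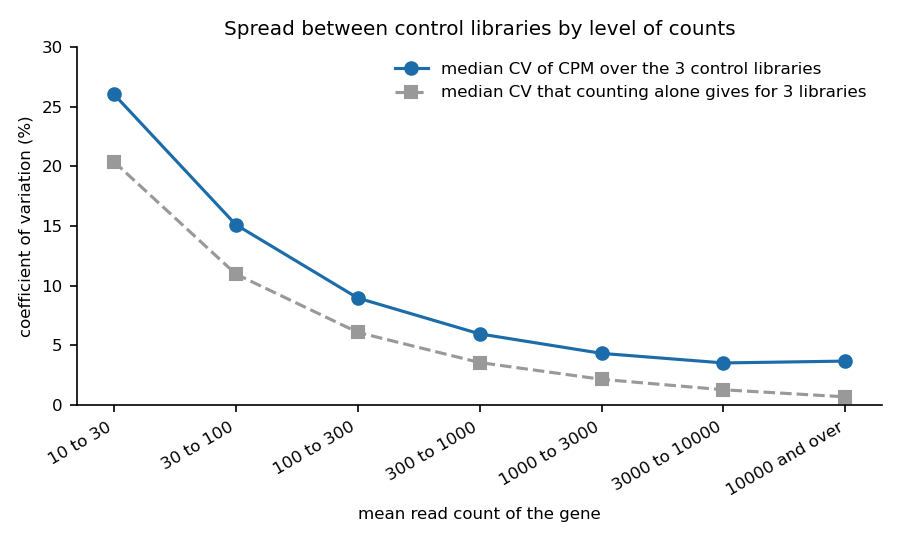
Median coefficient of variation (%) of CPM over the 3 control libraries for genes grouped by mean read count (solid line), beside the median that counting alone gives for 3 libraries (dashed line). The solid line levels off between 3.51% and 3.67% while the dashed line goes on to 0.668%.

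Of the 9578 genes with at least 100 counts in each library, 69 (0.720%) differed by 1.5 times or more between the highest and the lowest library, and 1 by 2 times or more. That gene was Gtf3a, a factor for transcription of 5S rRNA, with 100, 214 and 166 counts, or a ratio of 2.20 in CPM. Pcsk1n, an inhibitor of prohormone convertase of dense-core granules, had 1072, 1943 and 1873 counts (ratio 1.87), Hnrnpab, an RNA-binding protein, had 1984, 3525 and 2850 counts (1.83), and Imp3, a component of the small ribosomal subunit processome, had 507, 878 and 797 counts (1.78). Library 1 was the lowest for these 4 genes. It was the highest for Chrm4, a muscarinic receptor (272, 146 and 199 counts, ratio 1.81) and Accs (300, 212 and 170 counts, ratio 1.74). Lamtor4, a subunit of the lysosomal Ragulator complex, was highest in library 3 with 297, 208 and 369 counts (1.74).

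At the other end, Arl2bp had 144 CPM in each library, with a coefficient of variation of 0.0232%, and Pa2g4, Cse1l, Pfkm and Hsd17b7 had coefficients from 0.106% to 0.136%. Counting alone gives 2.26% at the depth of Arl2bp. These 5 are the lowest of 9578 values and lie below what counting gives, so they do not mark genes as more stable than others.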

How the data were processed

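The values came from the 3 control libraries, grouped by the hairpin in their labels. The authors deposited 1 table that gives a raw read count and an FPKM value per gene and library. The counts carry no normalization, and the deposited FPKM values were those counts scaled by the length column and by each library's sum. The submitters' processing notes name the genome build mm10. The aligner, counting tool, strand setting and handling of multiply matching reads are not given in the sources used here. Another 12 columns of counts and FPKM hold the knockdown libraries and were not used, and 8 lines carried text only.

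Of 21782 nuclear identifiers in GENCODE M21, 501 had the same start in the table, so coordinates are those of GENCODE M21 (GRCm38) by identifier. Totals of 13381570 to 13786986 counts set the precision. A gene was expressed at 1 FPKM or more in each library and at the floor at 3 counts or fewer in each. Spread was estimated with edgeR 4.0.16 in R 4.3.3 (intercept only, TMM, at least 10 counts in each library, prior count of 2 for log2 values), and the estimate was tested on simulated data. Shared sequence was counted over stretches of 100 bases on both strands with Python 3.11.15, a measure added after the levels were seen. It was counted in GENCODE M21 transcripts, and the annotation on which the authors counted reads may differ from these. No p-value was computed, and no comparison between groups was made.

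The rule for the genes named was the 25 highest by FPKM and 10 by counts, the 4 highest members of each list (printed where expressed) and its defining members at the floor, the 15 highest transcription factors and all expressed Hox genes, the 8 widest and 5 tightest genes among those with at least 100 counts in each library, the mitochondrial genes and Arf1. A few genes that this rule covers are not reported here. Other list members, kinases and ribosomal genes were named after their values were seen. The group described and the lists were chosen with earlier results of these data known. The alternatives were other thresholds for expression, counts in place of FPKM, leaving out gene classes, other scalings and filters, and leaving out each library in turn.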

Additional observations from a re-analysis of the deposited data

How the results depend on the processing

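The 10386 expressed genes became 11198 at 0.5 FPKM, 6987 at 5 FPKM and 11957 at 10 counts in each library. A threshold of 5 FPKM, applied to transcription factors and Hox genes after seeing the data, left 273 of the 563 transcription factors and 1 of the 4 Hox genes. Of 27 lists, 17 kept a count of expressed members within 1.5 times at 5 FPKM, 19 at 10 counts and 23 at 0.5 FPKM. Among those that changed more, macrophage and microglia markers went from 15 to 9 at 5 FPKM and catecholamine genes from 3 to 7 at 10 counts. Without 1 library, the brain region list had 2 expressed members in place of 1 (without library 1), and so had the lymphocyte list (without library 2).

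Counts in place of FPKM lowered the weight of short abundant transcripts. The top 10 genes then held 5.87% and the top 100 held 18.6% of the total, and 967 genes made up 50%. The top 100 held 29.1% without mitochondrially encoded genes and 24.2% without ribosomal protein genes, where 708 genes made up 50%. By counts, 14 of the 25 highest genes remained, and the shares were 7.36% for ribosomal protein genes, 0.784% for mitochondrially encoded genes, 1.69% for oxidative phosphorylation, 1.48% for the lysosome and 3.25% for protein processing in the endoplasmic reticulum.

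The coefficient of variation ranged from 4.22% (without library 1) to 6.33% (without library 3) when 1 library was left out, and the mean correlation from 0.994 to 0.995. The mean correlation was 0.996 as Spearman's rho and 0.997 on log2(FPKM + 1). With stretches of 50 bases, also tried after seeing the data, 21 genes that shared over 90% were expressed in place of 10. No paired analysis was made, since no test was made, although the values of different genes come from the same libraries. The main limits are counting depth for genes near the floor, 1 group with no comparison, and handling of shared reads that the sources used here do not give.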

Other observations

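G protein-coupled receptors, chosen after their values were seen, formed a sparse class in the control cells. Of 1930 such genes that the table annotates, odorant receptors included, 56 were expressed and 1597 had no count in any library. F2r, the thrombin receptor PAR1, was the highest at 154, 161 and 162 FPKM and did not overlap with the next, the adenosine receptor gene Adora2a, at 30.4, 26.0 and 29.3 FPKM. Ptgir, the prostacyclin receptor, had 26.4, 23.0 and 25.3 FPKM and overlapped with Adora2a.

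Of 52 receptor tyrosine kinase genes, 17 were expressed. Ltk, the closest relative of Alk, had 15.4, 16.3 and 15.8 FPKM. Ltk was therefore higher than Alk in every library, with no overlap.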
